A study of Mus musculus with 6 samples.

Results

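The 36 genes described here are mouse imprinted genes, which are expressed mainly from the maternal or from the paternal allele. They were taken from a list of known imprinted symbols, and each of the 36 was matched to 1 of the 31384 Ensembl gene rows of the count table. By textbook knowledge 13 are classed as maternally expressed and 22 as paternally expressed where they are imprinted. Each of these genes has 1 label, which does not account for tissue or for transcript. Gnas, which encodes the stimulatory G protein alpha subunit, is kept apart because the expressed allele depends on the transcript. The counts do not separate the alleles, so the classes are labels and allelic expression was not measured. Gene positions below are on mm10 (GRCm38).

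The 6 libraries came from a mouse spermatogonial stem cell line cultured for 18 days on feeder cells, mouse embryonic fibroblasts stopped from dividing with mitomycin C. All groups received 10 ng/mL EGF, 10 ng/mL FGF2 and LIF. The PTC group (2 libraries) also received 10 ng/mL rat GDNF, a factor these cells need to renew themselves. The NTC group (2 libraries) received no GDNF, and the LOVA group (2 libraries) received 5 uM Lovastatin, a statin that blocks the mevalonate pathway, in place of GDNF. Column letters A and B name the libraries, and paired values below give A first. Separate cultures are not stated for the libraries of a group, so p-values measure only the spread between these libraries. Total counts ranged from 12454671 to 22668087 per library. The labelled cell type was checked on 16 pan-germ-cell genes such as Ddx4 and Dazl, none of which was at 0 in a group. Their share of counts was 0.499% and 0.501% in the PTC libraries, 0.185% to 0.278% in NTC and 0.177% to 0.332% in LOVA. The 19 feeder fibroblast markers, such as the collagen gene Col1a1, were also all detected in each group, at 0.161% (A) and 0.661% (B) in PTC, 1.81% and 3.04% in NTC, and 1.61% and 3.06% in LOVA. Sertoli, Leydig and endothelial markers each made up at most 0.00384% in every library, and the 10 macrophage markers lay at 0.0241% to 0.0279% in PTC, 0.194% to 0.240% in NTC and 0.0420% to 0.0503% in LOVA.

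Imprinted genes lie in clusters that are controlled by DNA methylation set in the parental germ line at differentially methylated regions. In male germ cells the inherited marks are erased and a paternal pattern is laid down, with methylation at the regions that control H19 with Igf2 and Meg3 with Dlk1, and none at the promoters that are methylated in the egg, such as those of Peg3, Mest, Snrpn, Plagl1, Airn and Kcnq1ot1. Many imprinted genes act on fetal growth and are abundant in mesenchymal cells of the embryo, the source of the feeder fibroblasts.

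The promoter windows of 7 members are printed because their start sites are known to lie in such egg-methylated regions and their levels differed between groups in these data. RefSeq windows of 300 bases on GRCm38.p6 (250 before and 50 after the start) were found for 30 of the 36 members. Capitals mark TGCCGC, the 6-base core bound by ZFP57, a zinc finger protein that protects methylated imprints, on either strand (GCGGCA on the strand shown).
Peg3 promoter, chr7:6730370-6730669, minus strand: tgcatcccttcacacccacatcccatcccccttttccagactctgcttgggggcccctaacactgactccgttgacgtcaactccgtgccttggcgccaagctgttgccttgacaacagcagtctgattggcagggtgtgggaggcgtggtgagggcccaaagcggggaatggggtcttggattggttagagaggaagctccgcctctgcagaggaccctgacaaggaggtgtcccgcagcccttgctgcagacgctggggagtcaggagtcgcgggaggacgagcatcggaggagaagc
Mest promoter, chr6:30737800-30738099, plus strand: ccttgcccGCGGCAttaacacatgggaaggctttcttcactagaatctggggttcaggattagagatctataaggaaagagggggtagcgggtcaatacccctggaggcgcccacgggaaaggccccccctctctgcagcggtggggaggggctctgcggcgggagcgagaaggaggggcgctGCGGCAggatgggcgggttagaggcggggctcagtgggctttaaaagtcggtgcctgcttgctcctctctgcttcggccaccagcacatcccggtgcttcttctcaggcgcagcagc
Snrpn promoter, chr7:60005150-60005449, minus strand: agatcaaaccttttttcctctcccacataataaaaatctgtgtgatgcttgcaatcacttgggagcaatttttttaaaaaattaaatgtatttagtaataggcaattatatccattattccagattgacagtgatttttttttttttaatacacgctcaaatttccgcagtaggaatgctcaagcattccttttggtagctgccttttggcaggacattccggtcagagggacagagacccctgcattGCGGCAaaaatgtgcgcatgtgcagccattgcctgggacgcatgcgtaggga
Plagl1 promoter, chr10:13090582-13090881, plus strand: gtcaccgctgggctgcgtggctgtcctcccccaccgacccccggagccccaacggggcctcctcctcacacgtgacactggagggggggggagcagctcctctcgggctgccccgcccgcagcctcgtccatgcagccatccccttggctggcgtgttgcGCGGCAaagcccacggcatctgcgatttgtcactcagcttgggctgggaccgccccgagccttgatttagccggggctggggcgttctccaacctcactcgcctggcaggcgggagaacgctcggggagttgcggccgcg
Nap1l5 promoter, chr6:58907077-58907376, minus strand: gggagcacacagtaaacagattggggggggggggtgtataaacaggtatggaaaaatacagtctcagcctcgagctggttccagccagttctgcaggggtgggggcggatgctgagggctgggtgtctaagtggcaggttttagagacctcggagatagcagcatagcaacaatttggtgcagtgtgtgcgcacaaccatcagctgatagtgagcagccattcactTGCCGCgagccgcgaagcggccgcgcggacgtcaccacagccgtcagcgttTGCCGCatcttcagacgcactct
Airn promoter, chr17:12741061-12741360, plus strand: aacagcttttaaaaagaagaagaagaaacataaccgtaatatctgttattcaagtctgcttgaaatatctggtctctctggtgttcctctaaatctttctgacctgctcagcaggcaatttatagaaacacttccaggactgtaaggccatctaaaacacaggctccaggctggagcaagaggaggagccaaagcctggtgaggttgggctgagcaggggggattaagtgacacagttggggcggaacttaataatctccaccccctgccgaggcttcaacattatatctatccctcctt
Kcnq1ot1 promoter, chr7:143296498-143296797, minus strand: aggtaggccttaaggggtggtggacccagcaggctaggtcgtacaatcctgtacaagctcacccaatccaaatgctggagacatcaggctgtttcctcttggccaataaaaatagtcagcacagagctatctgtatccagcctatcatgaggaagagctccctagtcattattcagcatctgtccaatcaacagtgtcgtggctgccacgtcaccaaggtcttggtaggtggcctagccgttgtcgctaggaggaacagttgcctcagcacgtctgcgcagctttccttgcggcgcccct

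The core was found in 4 of these 7 windows, with 2 matches each for Mest and Nap1l5 and 1 each for Snrpn and Plagl1. Among the 46 windows of all members 26.1% held it, and among the 32851 windows of all genes 11.6% did. The members' windows had a median of 14.5 CpG dinucleotides, against 7 for all windows. The letters GCCATNTT, a core of the sequence bound by YY1, were searched on both strands and found in windows of 2 members, Mkrn3 and Ube3a, and in 6.05% of all windows. No member window held both motifs. These matches describe letters in a window. Methylation and factor binding were not measured.

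**Figure D1:**
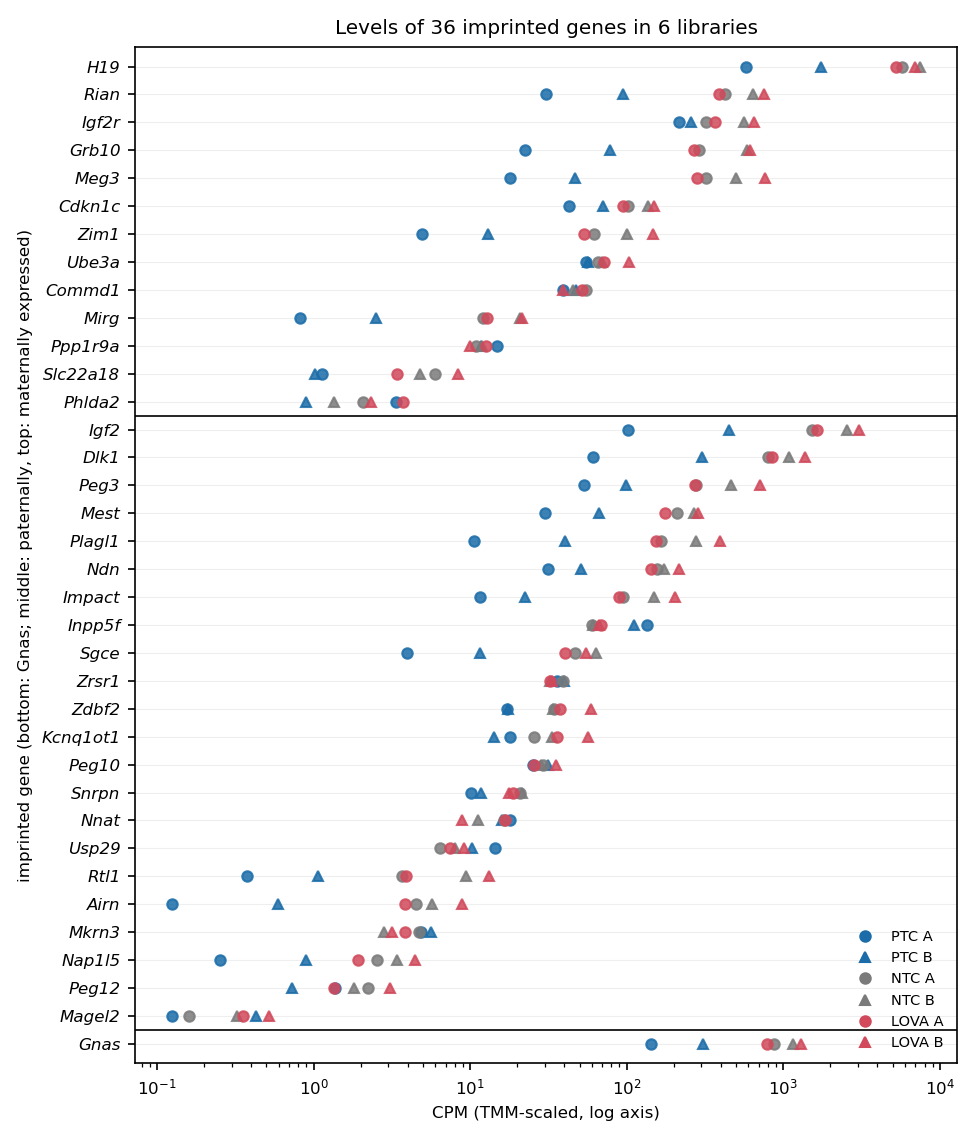
CPM of the 36 imprinted genes (log axis) in the 6 libraries, with circles for A and triangles for B libraries and 1 colour per group, maternally expressed genes at the top and Gnas at the bottom. H19 spans 578 to 7445 CPM, and for most genes both PTC libraries lie to the left of the NTC and LOVA libraries, while Inpp5f lies the other way.

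Levels are given as CPM, counts relative to library totals scaled by the trimmed mean of M values (TMM), and between genes as CPM per kilobase of exon. Per kilobase, H19, a noncoding RNA, was the most abundant member in every group, at 475 ± 339 (SD, n = 2) in PTC, 2677 ± 494 in NTC and 2488 ± 493 in LOVA. Igf2, the fetal growth factor that shares its enhancers, came next by group mean at 48.2 ± 42.8, 359 ± 128 and 411 ± 173 per kilobase. Dlk1, a transmembrane protein related to Notch ligands, stood at 32.3 ± 30.5, 168 ± 37.3 and 197 ± 67.2. In PTC the spread between the libraries does not separate Igf2, Dlk1, Cdkn1c (27.8 ± 9.77) and Igf2r (25.4 ± 2.99) from each other. The lowest member was Magel2, a MAGE family gene of the Snrpn domain, with 2 to 10 counts per library. It was the 1 member that did not pass the filter on low counts, so 35 were tested. Airn, Nap1l5 and Rtl1 had 2, 4 and 6 counts in PTC A and passed the filter through the libraries where they were higher.

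NTC minus PTC asks what differed when GDNF was left out. Of the 35 tested members, 22 rose and 1 fell in NTC, and 12 were not called (edgeR quasi-likelihood test, adjusted p under 0.05). Over all 16121 genes tested, 21.5% were called higher and 12.9% lower. The median log2 fold change was 2.18 for the members and -0.02 for all genes tested. Of the 13 maternally expressed members 8 rose and none fell, with a median of 2.31, and of the 21 tested paternally expressed members 13 rose and 1 fell, with a median of 2.00. Both classes thus moved in the same direction by similar medians, and no test of the difference between the classes was made. In 26 of the 35 both NTC libraries lay above both PTC libraries and in 3 below, against 39% and 38.5% of all genes tested. An unadjusted p under 0.05 was reached by 26 members, against 48.1% of all genes. The rise came beside a feeder marker share of 0.161% and 0.661% in PTC and 1.81% and 3.04% in NTC, and a fall of the germ cell share. Of the 19 feeder markers 12 rose and all 19 had a positive log2 fold change (median 2.94), of the 16 pan-germ-cell genes 9 fell (median -1.10), and all 10 macrophage markers rose (median 3.17). The part of these shares in the result was not tested, and in bulk RNA fewer cells of a type and less RNA per cell cannot be told apart. Without NTC B none of the 23 calls held, and over all genes 1 higher and 0 lower calls were left. Without PTC A many members' calls and most calls over all genes were lost, and the members' median was 1.70. Calls over all genes were also fewer without PTC B or NTC A. Without PTC B the calls of Slc22a18, Zdbf2, Rtl1 and Snrpn were lost, and without NTC A those of Slc22a18, Zdbf2, Cdkn1c, Dlk1, Igf2, Nap1l5 and Snrpn. Without either LOVA library, which enters only through the shared spread, H19, Igf2, Dlk1, Rian, Grb10 and Plagl1 lost their calls.

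**Figure D2:**
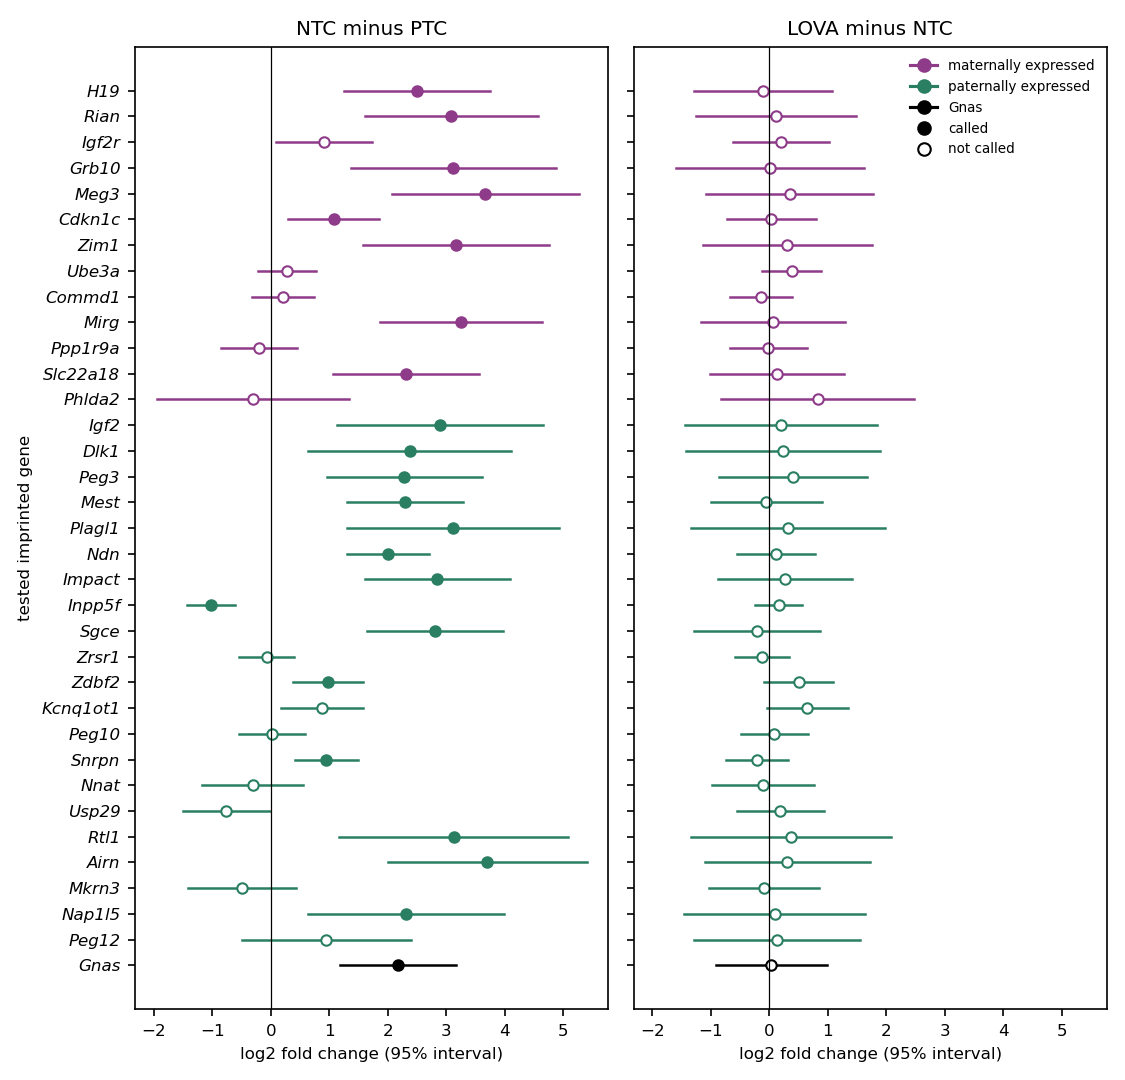
Log2 fold changes with 95% intervals from the edgeR fit for the 35 tested members, NTC minus PTC at the left and LOVA minus NTC at the right, with filled points for called genes. At the left 22 members are called above 0 and Inpp5f below it, in both colours of parental class, and at the right every interval includes 0.

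The paired H19 and Igf2 genes of the domain on chromosome 7 (H19, ENSMUSG00000000031, 142575529 to 142578143; Igf2, ENSMUSG00000048583, 142650766 to 142666816) are classed to opposite parents and both rose in NTC. H19 stood at 578 and 1757 CPM with GDNF (PTC), 5726 and 7445 in NTC, 5264 and 6977 in LOVA. PTC B was several times PTC A, and both lay below every NTC and LOVA library (a log2 fold change of 2.50 with SE 0.51, adjusted p = 0.0181). Igf2 stood at 102 and 449 CPM with GDNF (PTC), 1534 and 2571 in NTC, 1652 and 3056 in LOVA (a log2 fold change of 2.90 with SE 0.73, adjusted p = 0.0282). Both genes were lowest in PTC A and next lowest in PTC B. The number of H19 counts for each Igf2 count was 5.64 and 3.91 with GDNF (PTC), 3.73 and 2.90 in NTC, 3.19 and 2.28 in LOVA, lower in each B library than in the A library of its group. An annotated read-through gene, Gm49394, covers 62.8% of the exonic bases of Igf2 on the same strand, and it had 5 counts in NTC B and 0 in the other libraries.

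All 5 members of the Dlk1 and Meg3 domain on chromosome 12 rose in NTC. Dlk1 (ENSMUSG00000040856, chromosome 12, 109452823 to 109463336), expressed from the paternal allele, stood at 60.5 and 305 CPM with GDNF (PTC), 799 and 1097 in NTC, 846 and 1383 in LOVA (a log2 fold change of 2.38 with SE 0.72, adjusted p = 0.0461). Meg3 (ENSMUSG00000021268, chromosome 12, 109541001 to 109571726), a maternally expressed noncoding RNA, stood at 17.9 and 46.5 CPM with GDNF (PTC), 319 and 503 in NTC, 283 and 762 in LOVA (a log2 fold change of 3.67 with SE 0.66, adjusted p = 0.0139). PTC A was the lowest library for both, and no PTC library reached an NTC or LOVA library. Rian, the host RNA of small nucleolar RNAs, stood at 30.4 and 94.6 CPM with GDNF (PTC), 425 and 638 in NTC, 389 and 758 in LOVA (a log2 fold change of 3.09, SE 0.61). Mirg, which carries microRNAs, had a log2 fold change of 3.26 (SE 0.58), and Rtl1, a paternally expressed gene derived from a retrotransposon, of 3.13 (SE 0.83). Rtl1 had 6 counts in PTC A and 25 in PTC B, and passed the filter through the libraries where it was higher. Without PTC A, Dlk1 and Rtl1 lost their calls.

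Among the maternally expressed genes that restrain growth, Grb10 and Cdkn1c rose and Igf2r and Phlda2 were not called. Grb10 (ENSMUSG00000020176, chromosome 11, 11930508 to 12038683), an adaptor that dampens insulin and IGF receptor signalling, stood at 22.5 and 78.0 CPM with GDNF (PTC), 291 and 585 in NTC, 269 and 612 in LOVA (a log2 fold change of 3.12 with SE 0.72, adjusted p = 0.0235). Cdkn1c, the cell cycle inhibitor p57, stood at 42.6 and 70.8 CPM with GDNF (PTC), 102 and 137 in NTC, 94.9 and 150.1 in LOVA (a log2 fold change of 1.07 with SE 0.33, adjusted p = 0.0434). The change of Cdkn1c was smaller, with both NTC libraries above both PTC libraries. Igf2r, the receptor that clears IGF2, stood at 217 and 256 CPM with GDNF (PTC), 324 and 564 in NTC, 366 and 649 in LOVA (a log2 fold change of 0.91 with SE 0.35, adjusted p = 0.0811). Its NTC libraries also lay above its PTC libraries, and the difference missed the threshold, but was called with the block by column letter (adjusted p = 0.00222 by edgeR) and with no filter on low counts. Phlda2, a growth restrainer of the placenta, had 21 to 54 counts per library and overlapping groups (a log2 fold change of -0.30, 95% interval -1.95 to 1.35). Of the remaining maternally expressed members, the zinc finger gene Zim1 (3.17, SE 0.66) and the transporter gene Slc22a18 (2.31, SE 0.53) rose. The ubiquitin ligase gene Ube3a (0.28, 95% interval -0.23 to 0.78), the neurabin gene Ppp1r9a (-0.21, -0.86 to 0.44) and Commd1, a copper and NF-kB regulator (0.21, -0.32 to 0.74), were not called.

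Among paternally expressed genes, the zinc finger genes Peg3 and Plagl1 rose. Peg3 stood at 53.6 and 98.8 CPM with GDNF (PTC), 275 and 467 in NTC, 271 and 712 in LOVA (a log2 fold change of 2.28 with SE 0.55, adjusted p = 0.0254). Plagl1, a transcription factor that restrains proliferation, stood at 10.5 and 40.3 CPM with GDNF (PTC), 167 and 276 in NTC, 154 and 397 in LOVA (a log2 fold change of 3.11 with SE 0.75, adjusted p = 0.0252). In both, PTC A was lowest and LOVA B highest. Mest, a hydrolase family gene, stood at 30.3 and 66.8 CPM with GDNF (PTC), 211 and 268 in NTC, 177 and 285 in LOVA (a log2 fold change of 2.30, SE 0.42). Ndn, encoding the MAGE protein necdin, stood at 31.5 and 50.8 CPM with GDNF (PTC), 157 and 173 in NTC, 143 and 215 in LOVA (a log2 fold change of 2.00 with SE 0.30, adjusted p = 0.00968), the lowest adjusted p among the members. Impact, a regulator of the translation kinase GCN2, rose by 2.85 on the log2 scale (SE 0.51), the sarcoglycan gene Sgce by 2.81 (SE 0.49), and Nap1l5, of the nucleosome assembly family, by 2.31 (SE 0.71). Smaller rises were those of Snrpn, a spliceosome protein gene (0.95, SE 0.23), and Zdbf2, a zinc finger gene (0.98, SE 0.25). Gnas (ENSMUSG00000027523, chromosome 2, 174284320 to 174346744), of neither class, rose by 2.18 (SE 0.42) and stood at 144 and 308 CPM with GDNF (PTC), 875 and 1164 in NTC, 788 and 1299.9 in LOVA. Without PTC A, Zdbf2, Snrpn, Peg3, Plagl1, Nap1l5 and, of the maternally expressed genes, Grb10, Cdkn1c, Zim1 and Slc22a18 were no longer called.

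Inpp5f (ENSMUSG00000042105, chromosome 7, 128611328 to 128696425), a phosphoinositide phosphatase gene, was the 1 member that fell. It stood at 136 and 112 CPM with GDNF (PTC), 60.5 and 60.8 in NTC, 68.9 and 66.3 in LOVA (a log2 fold change of -1.03 with SE 0.17, adjusted p = 0.0112). Both PTC libraries lay above the other 4, and PTC A was the highest. With scaling on the pan-germ-cell genes in place of TMM, which moved the median of all genes from -0.02 to 1.02, its log2 fold change was 0.02 and the call was lost. The members' median was then 3.27, with 24 higher and 0 lower calls. Over all genes tested that scaling gave 5197 higher and 40 lower calls. The other uncalled paternally expressed members were Kcnq1ot1, Usp29, Nnat, Zrsr1, Peg10, Peg12 and Mkrn3. The noncoding RNA Kcnq1ot1 was at 0.87 (95% interval 0.18 to 1.57; adjusted p = 0.0146 with the block by column letter, by edgeR), the makorin gene Mkrn3 at -0.49 (-1.41 to 0.43), Nnat, which encodes neuronatin, at -0.31 (-1.17 to 0.56) and Peg12 at 0.95 (-0.50 to 2.40).

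Imprinted genes that share a start region or overlap did not move together in every case. The 17 domains held 8 with several members, of which 2 had every member called higher, 5 some members and 1, Zrsr1 with Commd1, none. Peg3 and Usp29 start 147 bases apart on opposite strands (Peg3, ENSMUSG00000002265, chromosome 7, 6703892 to 6730431; Usp29, ENSMUSG00000051527, 6730578 to 6967219), and the printed Peg3 window shares 263 bases with that of Usp29. Usp29, a ubiquitin peptidase family gene, stood at 14.3 and 10.3 CPM with GDNF (PTC), 6.45 and 8.05 in NTC, 7.47 and 9.11 in LOVA. Its log2 fold change of -0.76 (95% interval -1.50 to -0.01, adjusted p = 0.0987) lies outside the interval of Peg3 (0.95 to 3.61), and turned to 0.31 under scaling on pan-germ-cell genes. The difference between the 2 genes was not tested. The number of Peg3 counts for each Usp29 count was 3.73 and 9.63 with GDNF (PTC), 42.7 and 58.0 in NTC, 36.3 and 78.2 in LOVA.

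Sgce and Peg10 start 99 bases apart on opposite strands of chromosome 6 (Sgce, ENSMUSG00000004631, 4674350 to 4747207; Peg10, ENSMUSG00000092035, 4747306 to 4760517). Sgce stood at 3.95 and 11.6 CPM with GDNF (PTC), 46.6 and 63.3 in NTC, 40.2 and 54.6 in LOVA. Peg10, derived from a retrotransposon, stood at 25.2 and 31.5 CPM with GDNF (PTC), 29.3 and 28.2 in NTC, 25.5 and 35.4 in LOVA (a log2 fold change of 0.02, 95% interval -0.55 to 0.59). The groups of Peg10 overlapped, while the interval of Sgce was 1.64 to 3.97. The Sgce counts for each Peg10 count were 0.157 and 0.368 with GDNF (PTC), 1.59 and 2.24 in NTC, 1.57 and 1.54 in LOVA.

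Airn is a paternally expressed noncoding RNA that runs antisense across the start of Igf2r (Airn, ENSMUSG00000078247, chromosome 17, 12741311 to 12860136; Igf2r, ENSMUSG00000023830, 12682406 to 12769664). It stood at 0.125 and 0.596 CPM with GDNF (PTC), 4.54 and 5.67 in NTC, 3.84 and 8.85 in LOVA (a log2 fold change of 3.70 with SE 0.72, adjusted p = 0.0144). Airn had 16 counts over both PTC libraries, and its call was lost without PTC A. Zrsr1, a splicing factor gene that lies on the opposite strand within Commd1, stood at 35.7 and 39.9 CPM with GDNF (PTC), 39.5 and 32.5 in NTC, 32.3 and 33.4 in LOVA (a log2 fold change of -0.07, 95% interval -0.54 to 0.39). Commd1 stood at 39.4 and 47.3 CPM with GDNF (PTC), 54.9 and 45.5 in NTC, 51.7 and 39.1 in LOVA. Under scaling on pan-germ-cell genes Commd1 was called higher in NTC minus PTC. Exons of the pair overlap over 412 bases, and the kit keeps strand, but the strand setting of the counting is not given in the sources used here. Other members share exonic bases with opposite-strand genes: Cdkn1c over 30.7%, Ube3a over 27.3%, Mest over 23.1%, Gnas over 22.0% and Usp29 over 14.3% of their exonic bases. Snrpn shares 27.3% with genes on its own strand. These are shares of bases, and do not measure how uncertain the counts are. The overlapping genes differed in level. Gm44732, opposite Cdkn1c, had 11 counts in PTC B and 0 in the other libraries, while Copg2, opposite Mest, had 1295 to 3957 per library.

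**Figure D3:**
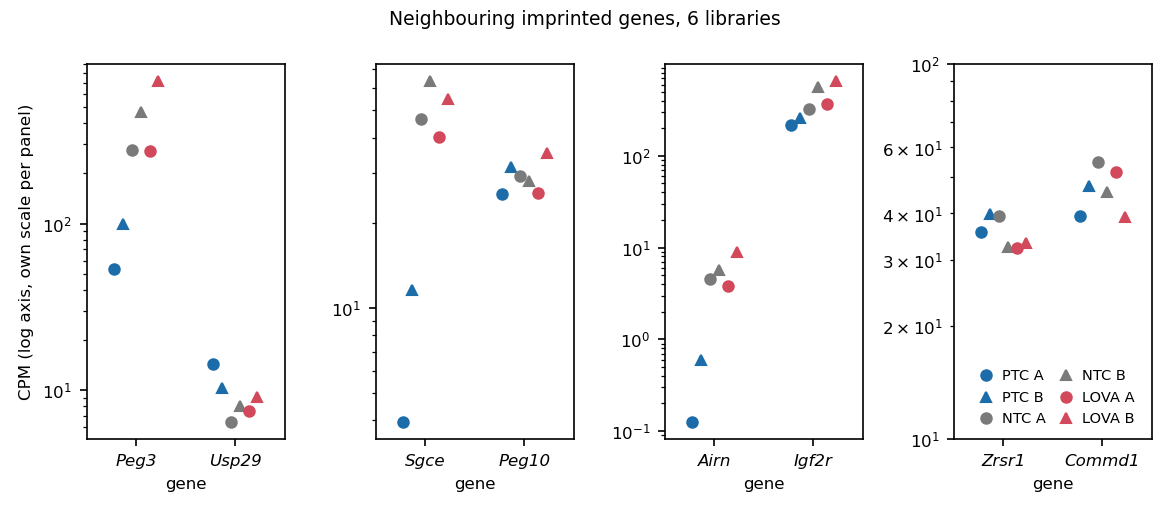
CPM (log axis, each panel with its own scale) of 4 pairs of neighbouring imprinted genes in the 6 libraries, circles for A and triangles for B. Peg3, Sgce, Airn and Igf2r are lowest in both PTC libraries. Usp29, Peg10, Igf2r, Zrsr1 and Commd1 were not called in NTC minus PTC.

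The members were then set against the marker genes of feeder and germ cells within each library. Of the 35 tested members, 20 varied less over the 6 libraries when expressed per feeder marker count than per pan-germ-cell marker count, against 20.1% of the 16086 tested genes outside the 2 marker lists. Maternally expressed genes made up 8 of the 20, paternally expressed genes 11, and Gnas was the other. The 20 were the 22 members called higher in NTC minus PTC, less Snrpn and Zdbf2. Feeder marker counts per pan-germ-cell marker count were 0.32 in PTC A and 17.2 in LOVA B. A gene that rises strongly outside PTC is therefore steadier per feeder count by arithmetic. These counts restate the fold changes above and are not separate support. Counts of H19 per 1000 feeder marker counts were 383 and 275 with GDNF (PTC), 320.0 and 229.7 in NTC, 335 and 213 in LOVA. For Igf2 they were 67.9 and 70.3 with GDNF (PTC), 85.7 and 79.3 in NTC, 105 and 93.4 in LOVA. For Grb10 they were 14.9 and 12.2 with GDNF (PTC), 16.3 and 18.1 in NTC, 17.1 and 18.7 in LOVA. Per feeder count these genes thus stayed within 2-fold (highest over lowest 1.80, 1.55 and 1.53), while per germ cell count they spanned 30.8-fold, 73.9-fold and 67.3-fold. In all, 8 of the 35 members stayed within 2-fold per feeder count, as did 2.37% of the tested genes outside the 2 marker lists. The other 5 were Dlk1, Sgce, Rian, Nap1l5 and Plagl1. Nap1l5 had 4 counts in PTC A and 21 in PTC B, and passed the filter through the libraries where it was higher.

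The remaining 15 members varied less per germ cell count than per feeder count. Of these, 11 varied less still per total count, and 4, Inpp5f, Mkrn3, Nnat and Usp29, varied least per germ cell count. Inpp5f counts per 1000 pan-germ-cell counts were 28.9 and 23.2 with GDNF (PTC), 22.0 and 30.8 in NTC, 21.3 and 34.9 in LOVA, a highest over lowest of 1.64, against 48.0 per feeder count. Zrsr1 counts per 1000 pan-germ-cell counts were 7.59 and 8.28 with GDNF (PTC), 14.3 and 16.5 in NTC, 10.0 and 17.6 in LOVA. Mkrn3, Nnat and Usp29 had a highest over lowest of 1.65, 1.79 and 2.26 per germ cell count and 2.19, 2.33 and 2.34 per total count. The 11 that were steadiest per total count ranged there from 1.26 for Peg10 to 4.04 for Phlda2. Among them were Zrsr1 (1.36 per total and 2.32 per germ cell count), Ube3a (1.66 and 4.68), Snrpn (1.94 and 5.07) and Igf2r (2.63 and 7.42). Cdkn1c, counted above with the feeder side, was also steadiest per total count, at 3.09 against 6.69 per feeder and 8.73 per germ cell count. Within groups, the B library, which had the larger feeder share in each group, was above the A library in all 3 groups for 21 of the 35 members, against 26.4% of all tested genes. The A library was above B in all 3 groups for 2, Phlda2 and Nnat (19.3% of all tested genes).

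**Figure D4:**
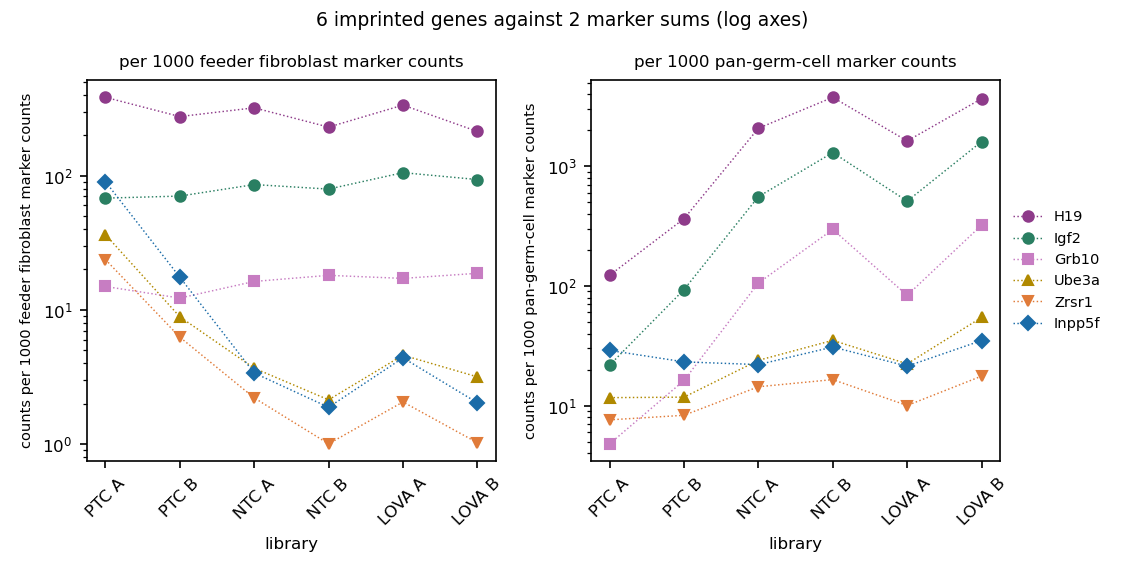
Counts of 6 imprinted genes per 1000 feeder fibroblast marker counts (left) and per 1000 pan-germ-cell marker counts (right), log axes, 1 point per library. H19, Igf2 and Grb10 run level at the left and climb at the right, while Inpp5f, Zrsr1 and Ube3a fall at the left and vary less at the right; the dotted lines only join the points of a gene.

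The summed level of the maternally expressed members in CPM was 1027 and 2436 with GDNF (PTC), 7401 and 10126 in NTC, 6876 and 10240.2 in LOVA. That of the paternally expressed members was 586 and 1306 with GDNF (PTC), 3535 and 5319 in NTC, 3631 and 6627 in LOVA. H19 made up 56.2% to 77.4% of the maternal sum, and the largest paternal member was Inpp5f in PTC A (23.2% of the sum) and Igf2 in the other 5 libraries (34.4% to 48.3%). The maternal sum over the paternal sum was 1.75 and 1.86 with GDNF (PTC), 2.09 and 1.90 in NTC, 1.89 and 1.54 in LOVA. Without H19 and Igf2 it was 0.929 and 0.792 with GDNF (PTC), 0.837 and 0.976 in NTC, 0.814 and 0.914 in LOVA. With all members the NTC libraries had the highest ratios and the LOVA libraries lay on either side of the PTC libraries; without H19 and Igf2 the 3 groups overlapped. Both sums were higher in every NTC and LOVA library than in either PTC library.

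LOVA minus NTC sets Lovastatin against no addition where GDNF was missing in both groups. No imprinted gene was called in this comparison, nor was any gene at all by edgeR (0% of 16121 higher and 0% lower); over all genes DESeq2 called 25 higher and 95 lower, the fit blocked by column letter 18 and 72, and the fit with no filter on low counts 44 and 147. No member had an unadjusted p under 0.05, while 3.48% of all tested genes did, and none of these other fits called a member. The median log2 fold change was 0.13 for the members, 0.11 for the maternally and 0.16 for the paternally expressed ones, and 0.01 for all genes tested. The direction of the members' median rested on single libraries, being -0.32 without LOVA B and -0.03 without NTC A. H19 was at -0.11 (95% interval -1.28 to 1.07), Igf2 at 0.20 (-1.44 to 1.83), Dlk1 at 0.23 (-1.42 to 1.89) and Gnas at 0.03 (-0.92 to 0.99). The intervals of H19, Igf2 and Dlk1 include changes of 2-fold in either direction. The signs of H19, Igf2, Dlk1 and Gnas changed on leaving out 1 library.

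Both LOVA libraries lay above both NTC libraries in 5 tested members, Kcnq1ot1, Zdbf2, Ube3a, Phlda2 and Inpp5f, and below them in 1, Snrpn, against 12.7% and 13% of all genes tested. Kcnq1ot1 (ENSMUSG00000101609, chromosome 7, 143203458 to 143296549) had the lowest p of the members. It stood at 18.0 and 14.3 CPM with GDNF (PTC), 25.5 and 33.6 in NTC, 35.7 and 56.7 in LOVA (0.64 in log2 for LOVA minus NTC, SE 0.29, adjusted p = 1 by edgeR). Zdbf2 stood at 17.2 and 17.4 CPM with GDNF (PTC), 34.5 and 33.9 in NTC, 37.7 and 59.2 in LOVA (0.50, SE 0.25). Ube3a stood at 54.8 and 56.6 CPM with GDNF (PTC), 65.7 and 69.1 in NTC, 72.1 and 103 in LOVA (0.38, SE 0.21). In these 3 genes LOVA B was the highest library and LOVA A lay just above the higher NTC library. Feeder shares were 1.81% and 3.04% in NTC and 1.61% and 3.06% in LOVA. Macrophage marker shares were 0.194% and 0.240% in NTC and 0.0420% and 0.0503% in LOVA. All 10 macrophage markers were lower in LOVA (median log2 fold change -2.30), each with an unadjusted p under 0.05 by edgeR, and none was called. The part of these shares was not tested.

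LOVA minus PTC shares the PTC libraries with the first comparison. In it 23 members rose, 1 fell and 11 were not called, against 19.8% of all genes called higher and 10.8% lower. The median log2 fold change was 2.21 for the members, 2.39 for the maternally and 2.12 for the paternally expressed ones, and 0.00 for all genes tested. Both LOVA libraries lay above both PTC libraries in 25 members and below them in 4, against 38.4% and 37.9% of all genes. H19 was at 2.39 (SE 0.51), Igf2 at 3.09 (SE 0.73), Meg3 at 4.01 (SE 0.67) and Airn at 4.01 (SE 0.72). Inpp5f fell by 0.87 on the log2 scale (SE 0.17), and turned to 0.11 under scaling on pan-germ-cell genes. That scaling moved the median of all genes to 0.99 and gave 26 higher and 0 lower members. Over all genes tested it gave 4476 higher and 33 lower calls. Kcnq1ot1 was called here (a log2 fold change of 1.52 with SE 0.30, adjusted p = 0.019) and missed the threshold in NTC minus PTC (adjusted p = 0.0571). In the latter it was called by DESeq2, with no filter on low counts, under scaling on pan-germ-cell genes, with the block by column letter and without either LOVA library, so the 2 comparisons are not set apart by it. With the block Igf2r and Ube3a were also called in LOVA minus PTC (adjusted p = 0.000732 and 0.0123 by edgeR). Without PTC A or LOVA B most or all of the members' calls were lost, as were most or all calls over all genes. The members' median log2 fold change was then 1.79 and 1.67. Without PTC B the calls of Slc22a18, Kcnq1ot1 and Snrpn were lost, without LOVA A those of H19, Igf2, Dlk1, Rian, Grb10, Plagl1 and Snrpn, and without either NTC library those of Cdkn1c, Dlk1, Nap1l5 and Snrpn, with Igf2 also lost without NTC B. Feeder shares were 0.161% and 0.661% in PTC and 1.61% and 3.06% in LOVA, and their part was not tested.

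Of 31 other imprinted genes, many of them imprinted mainly in placenta, 30 had a row and 23 were tested. In NTC 7 rose and 3 fell, with a median of 0.07, and 7 rose and 0 fell, with a median of 1.13, under scaling on pan-germ-cell genes. The largest rises were those of the protease inhibitor gene Tfpi2 (4.01, SE 0.80), the matrix proteoglycan gene Dcn (3.87, SE 0.75) and the lipid transfer gene Osbpl5 (2.94, SE 0.48). Tfpi2 had 5 counts in PTC A and 51 in PTC B, and passed the filter through the libraries where it was higher. Dcn is also a common fibroblast marker. In LOVA minus PTC the same 3 genes stood at 3.89, 3.72 and 3.15, and 7 of the list rose and 3 fell, with a median of -0.12 that turned to 0.83 under that scaling, with 7 higher and 0 lower. In LOVA minus NTC none was called, and the abundant Dcn and Cd81, a tetraspanin gene, were at -0.14 (SE 0.67) and -0.01 (SE 0.33).

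Of 21 genes that set or protect imprints, 9 fell and 2 rose in NTC, with a median of -0.90, or 0.14 under scaling on pan-germ-cell genes, where none was called lower. The DNA methylation oxidase gene Tet2 rose by 2.79 (SE 0.60), from 2.27 ± 0.463 CPM in PTC to 15.8 ± 6.11 in NTC (SD, n = 2). The other gene that rose was the zinc finger gene Zfp445 (0.91, SE 0.26), which was also called higher in LOVA minus PTC (1.41, SE 0.26). The histone demethylase gene Kdm1b (-1.10, SE 0.20) and the de novo methyltransferase gene Dnmt3b (-1.10, SE 0.34) fell. Zfp57, whose core is marked in the promoters above, stood at 15.1 and 13.3 CPM with GDNF (PTC), 16.4 and 15.1 in NTC, 15.7 and 17.3 in LOVA and was not called (a log2 fold change of 0.15, 95% interval -0.40 to 0.70). In LOVA minus PTC 9 fell and 2 rose, with Tet2 at 3.23, Dnmt3l, a cofactor of the methyltransferases, at -1.99 and Dnmt3b at -1.46. Scaled to the pan-germ-cell genes, their median of -0.76 became 0.21. In LOVA minus NTC none was called, with the abundant histone methyltransferase gene Ehmt2 at -0.08 and Trim28, the partner of ZFP57, at 0.09.

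Of 13 genes around IGF signalling, 7 rose and 2 fell in NTC, with a median of 1.23, and 9 rose and 0 fell, with a median of 2.34, under scaling on pan-germ-cell genes. They include Irs1, a substrate of the insulin receptor (3.78, SE 0.84), Igf1 (3.55, SE 0.47) and the IGF-binding protein gene Igfbp3 (3.34, SE 0.73). In LOVA minus PTC these 3 stood at 3.90, 3.06 and 2.90, with 8 of the list higher and 2 lower and a median of 1.36, or 10 and 0 and 2.44 under that scaling. Irs1 had 8 counts in PTC A and 60 in PTC B, and passed the filter through the libraries where it was higher. In LOVA minus NTC none was called, and Igfbp3 and the receptor gene Igf1r were at -0.44 (SE 0.67) and 0.21 (SE 0.17). The calls in these 3 lists are read against the same shares of all genes given for each comparison, beside the same feeder and germ cell shares. Those under scaling on pan-germ-cell genes are read against the calls over all genes given for that scaling.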

How the data were processed

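RNA was measured in 6 strand-specific paired-end libraries. The values, as deposited, are whole-number counts, not normalized, with 1 row for each Ensembl gene. Per the submitters' processing notes, Trimmomatic, Bowtie2, RSEM, DESeq2 and the build mm10 were used, with no versions or roles. Counts from RSEM would be rounded estimates, which the table does not settle. Symbols, positions and exon lengths came from GENCODE M21 (GRCm38), which matched 31363 of 31384 rows. Count columns name the group and a letter, and nothing ties the letters to the labels' replicate numbers.

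Genes were kept by filterByExpr (16121 tested), scaled by TMM and fitted over all 6 libraries with 1 coefficient per group, leaving 3 residual degrees of freedom, in edgeR 4.0.16 under R 4.3.3 (robust quasi-likelihood, legacy form). The common biological coefficient of variation was 0.26. P-values were Benjamini-Hochberg adjusted over all genes tested. The floor of 3 counts corresponds to 0.132 to 0.241 CPM, and total counts set this precision, which covers counting error only. The method was tested on simulated data, but no result of that test is given here and no error rate is drawn from it. Ratios to marker counts used a pseudocount of 0.5 for their spread.

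All 36 members are named. From the other lists, the 3 called genes with the largest change per comparison and a mean CPM of at least 1, or the 2 most abundant where none was called, are named. The members and lists were chosen with earlier results of these data known. Alternatives were relative log expression factors, DESeq2 1.42.0, no count filter, scaling to pan-germ-cell genes, a block by column letter and leaving out each library. Other single genes, such as Gm49394, Zfp57, Zfp445 and Col1a1, were named after their values were seen.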

Additional observations from a re-analysis of the deposited data

How the results depend on the processing

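The counts of called members stayed within 1.5 times under relative log expression factors, DESeq2, no count filter and the block by column letter (24 higher and 1 lower in NTC minus PTC with the block, 25 and 1 in LOVA minus PTC). The block added Igf2r and Kcnq1ot1 in the first and Igf2r and Ube3a in the second. Over all genes the lower calls moved more, from 2086 to 3632 in NTC minus PTC and from 1747 to 3466 in LOVA minus PTC with the block, and to 2703 in the latter with no filter. Leaving out 1 library each gave 0 to 18 higher and 0 to 1 lower calls in NTC minus PTC, and 0 to 20 higher and 0 to 1 lower in LOVA minus PTC; a group left with 1 library is assumed to vary like the others, and the cause of the losses was not tested. Under scaling on pan-germ-cell genes 0 members were lower in either comparison. Over all genes tested 40 were called lower there in NTC minus PTC and 33 in LOVA minus PTC. In NTC minus PTC the values that changed sign there were 0.68 for Phlda2, 0.85 for Ppp1r9a, 0.31 for Usp29, 0.51 for Mkrn3, 0.70 for Nnat, 0.96 for Zrsr1 and 0.022 for Inpp5f. In LOVA minus PTC they were 0.71 for Ppp1r9a, 0.45 for Usp29, 0.36 for Mkrn3, 0.46 for Nnat, 0.80 for Zrsr1 and 0.11 for Inpp5f. Without a count filter Peg10 was at -0.0041 in NTC minus PTC, and with the block Gnas was at -0.0051 in LOVA minus NTC. Leaving out 1 library gave ranges that crossed 0 in NTC minus PTC for Phlda2 (-0.99 to 0.92), Peg10 (-0.13 to 0.19) and Zrsr1 (-0.21 to 0.062), in LOVA minus NTC for H19 (-0.32 to 0.10), Igf2 (-0.31 to 0.62), Dlk1 (-0.16 to 0.54) and Gnas (-0.37 to 0.35), and in LOVA minus PTC for Phlda2 (-0.16 to 1.75), Commd1 (-0.15 to 0.25) and Peg10 (-0.15 to 0.32). None of these genes but Inpp5f, and H19, Igf2, Dlk1 and Gnas in the comparisons with PTC, was called with TMM over all 6 libraries. Commd1 was called higher under scaling on pan-germ-cell genes in both comparisons with PTC. The labels' replicate numbers could not be used as a pairing because the count columns carry letters; deviations of A libraries from their group means correlated between groups at 0.247, 0.293 and 0.366 over 16121 genes, a hint from the data and not from the design. Depth limits Magel2 and the PTC A values of Airn, Nap1l5 and Rtl1, which rest on 2, 4 and 6 counts. Outside the members it limits the PTC A values of Tfpi2 and Irs1, which rest on 5 and 8 counts.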
